A study of Mus musculus with 4 samples.

Results

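Genes of 4 DNA repair routes were examined in mouse breast cancer cells: non-homologous end joining, mismatch repair, base excision repair with the sensors of broken strands, and nucleotide excision repair, together with Mgmt, which reverses alkyl damage directly. The set was a list of 40 gene symbols, and a member was measured where a non-control probe of the array carried its symbol as the gene name. All 40 had a probe, of 31829 gene names on the array, with 54 probes between them, and the brightest probe over the 4 arrays gave the gene its value. By route the set held 9 end joining, 5 mismatch repair, 14 base excision and 11 nucleotide excision genes. The cells were derived from tumours of MMTV-Neu mice, whose transgene places the Neu oncogene (Her2, gene Erbb2) under a viral promoter active in the mammary gland, so both groups carried this transgene. The 2 samples of one group were labelled Pak1-/-, that is, lacking the p21-activated kinase Pak1, and the 2 of the other Pak1+/+, and per the series design the duplicates of a group came from different tumours. All cells were grown in low calcium medium with 5% horse serum, then kept 3 h without serum and given EGF for 15 min, and total RNA (0.5 ug) was labelled with Cy3 for an Agilent array with 60-base probes. Mouse age was not given in the sources used here, and the human cells of the study were not analysed here.

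Each route deals with its own kind of lesion. End joining ligates the ends of a broken chromosome, mismatch repair removes bases misplaced during replication, base excision repair cuts out single damaged bases, and nucleotide excision repair removes bulky adducts and ultraviolet photoproducts. The PARP enzymes mark broken strands and are the targets of the PARP inhibitors used in breast cancer.

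The Pak1 probe was read first. Which part of Pak1 is deleted is not given in the sources used here, so the probe may lie outside it and then checks nothing about the labels. It read 12.21 and 12.25 in the Pak1-/- label group and 12.04 and 12.04 in the Pak1+/+ label group, in normalized log2 units, a difference of 0.19 (SE 0.07, limma adjusted p = 0.070). A lower signal of this probe under the Pak1-/- label was thus not seen, and every direction below is that of the labels. The arrays of a group lay side by side on 1 slide, so slide position and genotype cannot be told apart. Median spot intensities were 322 to 331 and 62.2% to 70.4% of probes were well above background. Of 9 mammary epithelial markers 8 stood well above background on every array, and their summed level was 19.93 to 19.95 log2 in the arrays labelled Pak1-/- and 19.49 on both of the others. Within this list 5 were higher, Krt14 by 7.12-fold among them, and Erbb2 and Erbb3 were lower. Of 9 leukocyte markers 5 were, with Cd3g and Lyz2 on no array and sums of 15.67 to 16.19 against 15.41 to 15.55. Itgam, not past the threshold (0.49, limma adjusted p = 0.11), carried that sum, and the 1 leukocyte marker called, Ptprc, was lower (-0.45, limma adjusted p = 0.0056). Of 7 fibroblast markers 3 were, with Col3a1, Dcn, Lum and Pdgfrb on no array and sums of 10.34 to 10.50 against 10.07 to 10.16, and Col1a1 was 2.17-fold higher. Of 5 endothelial markers 2 were, with sums of 13.29 to 13.35 against 13.16 to 13.41. The part of these levels in the results was not tested.

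Promoter sequence was available for 33 of the 40 members, as the window from 250 bases before to 50 after the start in RefSeq (GRCm38.p6, 27025 genes). The E2F family controls genes of the S phase, and its words TTTCCCGC, TTTGGCGC, TTTCGCGC and TTTGCCGC, searched on both strands, lay in 2.32% of all windows and in 4 of the 33 members. These 4 are shown with the words in capitals, 5′ to 3′ on the gene's strand, because all are genes that were lower in the arrays labelled Pak1-/-. The stretches are chr13:92355164-92355235 on the minus strand for Msh3, and chr15:82016293-82016360 for Xrcc6, chr17:24632520-24632587 for Nthl1 and chr17:87975055-87975082 for Msh6 on the plus strand. In Msh3 the capitals hold a pair of overlapping words, 1 on each strand.
Msh3: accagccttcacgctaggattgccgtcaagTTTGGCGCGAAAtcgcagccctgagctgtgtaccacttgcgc
Xrcc6: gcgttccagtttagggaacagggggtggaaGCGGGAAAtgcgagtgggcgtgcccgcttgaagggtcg
Nthl1: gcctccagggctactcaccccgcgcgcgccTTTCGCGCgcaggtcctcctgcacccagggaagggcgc
Msh6: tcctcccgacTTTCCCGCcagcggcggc
By call, these were 4 of 16 lower members with a window, 0 of 7 higher members and 0 of 10 that did not pass the test. A match is a description of the letters and no evidence of binding.

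The difference between the shares of lower and higher members with an E2F word was not tested. Other promoter words gave other counts. The cell cycle word CHR (TTTGAA, either strand) lay in 18.1% of all windows but in 1 of the 33 members, which was 1 of the 7 higher and none of the 16 lower ones. The consensus word of NRF1 lay in 0.977% of all windows and in 2 of the 33, both among the members that did not pass. The CCAAT box (CCAAT on either strand) lay in 37.9% of all windows and 19 of the 33 members, of which 9 of 16 were lower and 5 of 7 were higher members. The Sp1 word GGGCGG lay in 35.9% of all windows and 25 of the 33, among them 14 of 16 lower and 5 of 7 higher members. The 150 bases before the start are shown for Pms2, a mismatch repair gene that was at least 2-fold lower (chr5:143909851-143910000, plus strand), and for the higher genes Dclre1c (chr2:3423981-3424130, plus strand) and Xpa (chr4:46196312-46196461, minus strand), with CCAAT or its reverse complement in capitals.
Pms2: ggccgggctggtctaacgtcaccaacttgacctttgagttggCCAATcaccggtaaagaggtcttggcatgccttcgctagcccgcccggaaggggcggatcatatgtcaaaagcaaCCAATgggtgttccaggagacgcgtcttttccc
Dclre1c: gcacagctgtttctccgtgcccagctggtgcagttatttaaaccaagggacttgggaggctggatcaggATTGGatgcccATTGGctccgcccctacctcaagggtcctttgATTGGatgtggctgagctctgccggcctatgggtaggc
Xpa: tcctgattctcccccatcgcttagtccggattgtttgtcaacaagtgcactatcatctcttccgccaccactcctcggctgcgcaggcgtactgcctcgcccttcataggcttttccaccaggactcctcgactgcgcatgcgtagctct
The Pms2 and Dclre1c stretches held this box. The Xpa stretch held none, although Xpa carried a CCAAT further upstream, 238 bases before its start. The part of the box in the direction of a change was not tested.

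Across the 40 members, 20 (50%) were lower and 9 (22.5%) were higher in the arrays labelled Pak1-/- by limma with Benjamini-Hochberg adjustment over all 27229 probes tested, and 11 did not pass the threshold of 0.05. Mgmt, among the 9, was above background in the group labelled Pak1-/- alone and passed the filter on dim probes only through that group. With only probes well above background on every array, which leaves Mgmt out, 22 members were lower and 8 higher. Over all 21961 genes tested at their brightest probe, 51% were called, 28.2% lower and 22.8% higher, and over the probes 51.9% were, 28.6% lower and 23.3% higher. The direction of this background turned with the scaling: 44.7% of the called genes were higher here and 52.2% under cyclic loess, where the median log2 fold change of all genes was -0.00081. In that setting 18 members were lower and 10 higher. As processed here, the share of lower members was above that background and the share of higher members was close to it. The median log2 fold change of the members was -0.30, against -0.05 over all genes. For 37 of the 40 members the groups did not overlap, which held for 77.6% of all genes. At least 2-fold were the changes of 3 lower and 2 higher members (Xpa, and Mgmt by its bound), where all genes gave 5.62% and 7%.

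By route, all 5 mismatch repair genes were lower (median log2 fold change -0.64). Of the 14 base excision genes 8 were lower and 2 higher (median -0.40), and of the 9 end joining genes 4 were lower and 1 higher (median -0.22). The share called was 100% in mismatch repair, 71.4% in base excision, 72.7% in nucleotide excision and 55.6% in end joining. Over all genes it was 51%, with 28.2% lower and 22.8% higher, so the share called in end joining was close to that of all genes. Nucleotide excision was the route with more higher than lower genes, 5 against 3 of 11 (median 0.16). That median was 0.099 without Pak1+/+ replicate 1, where 0 genes of the route were lower and 3 higher, and 0.086 with normexp values scaled to the 75th percentile. Of 15 further genes of the route outside the set, 9 were lower and 2 higher. The SD between replicates of a route's median was 0.029 for end joining, 0.039 for mismatch repair, 0.049 for base excision and 0.032 for nucleotide excision. The difference between routes was not tested, since genes are not replicates of a condition. In the same cells 16 of 19 proliferation markers were lower and 0 higher (median -0.82), while of 14 p53 target genes 0 were lower and 9 higher (median 0.55), and the part of either in the result was not tested. In bulk RNA, fewer cells with a transcript and less of it per cell cannot be told apart.

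**Figure D1:**
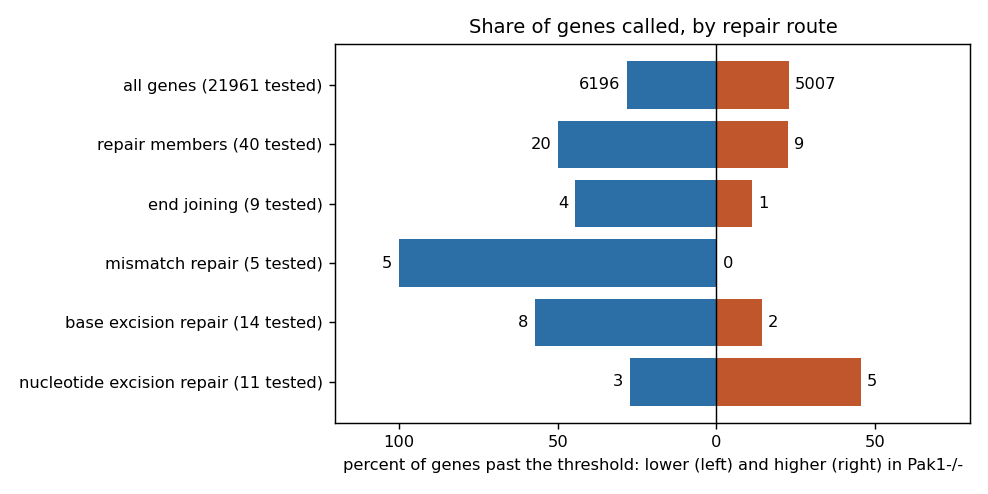
Percent of genes past the limma threshold in each repair route and over all genes, lower to the left and higher to the right in the arrays labelled Pak1-/-, with the number of genes tested beside each name. Mismatch repair reached 100% lower, and nucleotide excision repair was the route whose higher genes outnumbered its lower ones.

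**Figure D2:**
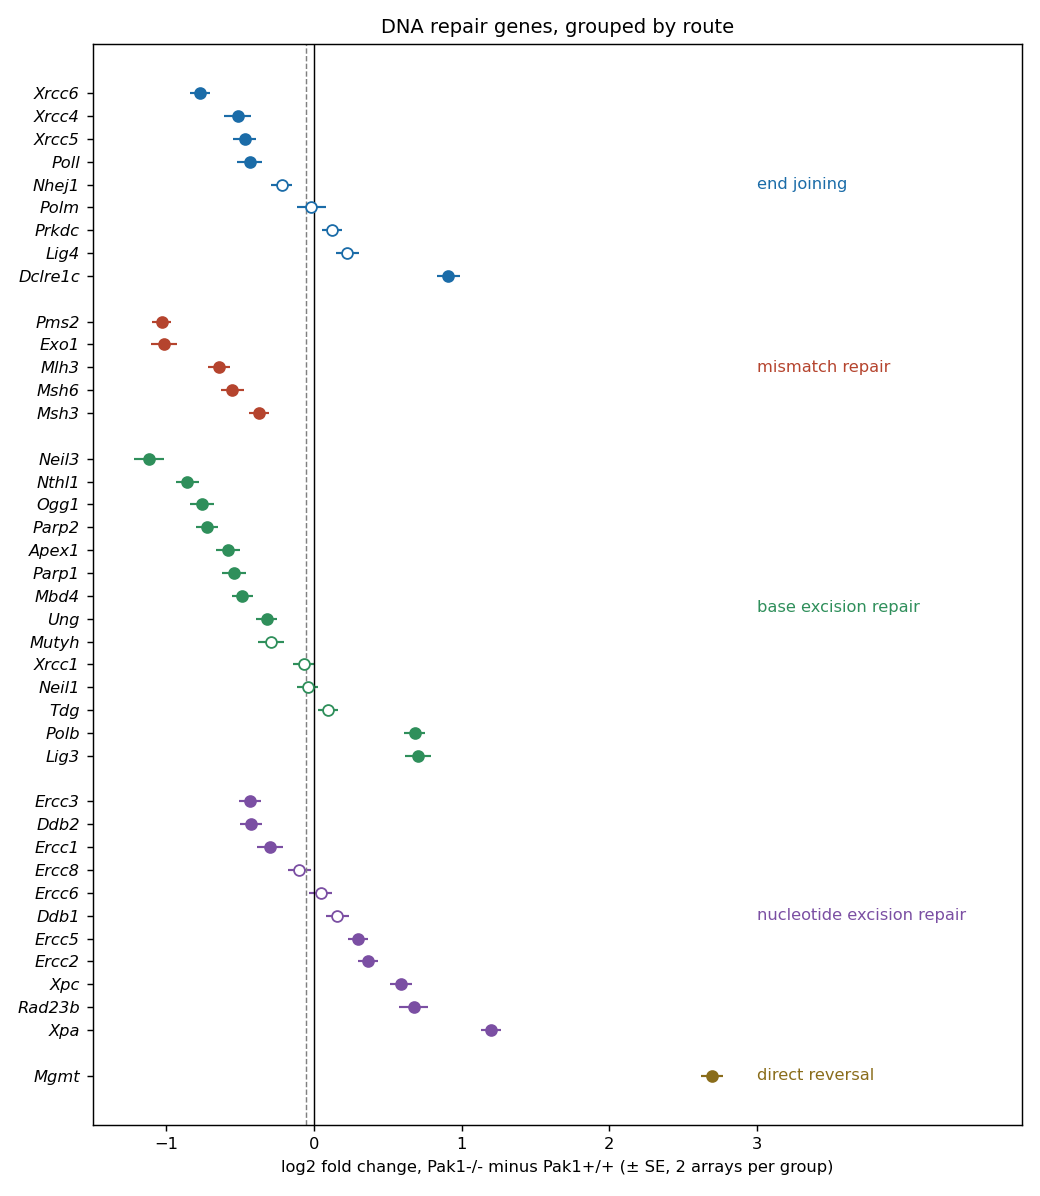
Log2 fold change of each member, Pak1-/- minus Pak1+/+, with its standard error (n = 2 arrays per group), grouped by route, with open points for members not past the threshold and a dashed line at the median of all genes. The 20 lower members lay left of 0, the 9 higher members right of it, and Mgmt farthest to the right at a fitted value of 2.70, which rests on a signal not well above background in Pak1+/+ and for which the data give only a lower bound of 2.18.

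Mismatch repair begins when a pair of MutS proteins binds a mispaired base and recruits MutL proteins that nick the new strand, which the exonuclease Exo1 then degrades. Pms2, the nicking MutL subunit (probe at mm9 chr5:144692034-144692093), read 11.26 and 11.30 log2 on the arrays labelled Pak1-/- against 12.31 and 12.31 on those labelled Pak1+/+. Its means were 11.28 ± 0.027 and 12.31 ± 0.0050 (SD, n = 2 each), which was 2.05-fold lower (log2 difference -1.03, SE 0.067, limma adjusted p = 0.00063). The groups were far apart and the replicates nearly coincided, and the second Pms2 probe gave -0.99. Exo1 (chr1:177838682-177838741) read 12.50 and 12.38 against 13.53 and 13.39. The means of 12.44 ± 0.088 and 13.46 ± 0.097 (SD, n = 2 each) differed 2.02-fold (-1.02, SE 0.090, limma adjusted p = 0.0013). Both arrays labelled Pak1-/- lay below both others.

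Mlh3 (chr12:86576360-86576419), a MutL subunit known from meiosis, read 10.06 and 10.10 against 10.78 and 10.67, with means of 10.08 ± 0.029 and 10.72 ± 0.073 (SD, n = 2 each). It was lower by 0.64 log2 (SE 0.075, limma adjusted p = 0.0028, difference -0.64), again without overlap. The MutS subunits that pair to read single mismatches and larger loops, Msh6 (-0.55, limma adjusted p = 0.0050) and Msh3 (-0.37, limma adjusted p = 0.011), were lower as well. One of the 3 Msh3 probes gave -0.16 and did not pass, and the Msh3 call was lost when either array labelled Pak1+/+ was left out (limma adjusted p of up to 0.064). Among 5 further mismatch repair genes outside the set, 3 were lower and 0 higher (median -0.32), Pms1 with -0.66 among them.

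In end joining, the Ku proteins clamp the broken ends and bring in the kinase encoded by Prkdc. Xrcc6, which encodes Ku70 (chr15:81870452-81870511) and whose promoter stretch is printed above, read 13.51 and 13.52 on the arrays labelled Pak1-/- against 14.29 and 14.29. It was lower by 0.77 log2 (13.52 ± 0.0081 against 14.29 ± 0.0046, SD, n = 2 each; difference -0.77, SE 0.066, limma adjusted p = 0.0012). Its partner Xrcc5, encoding Ku80, was also lower (-0.47, SE 0.077, limma adjusted p = 0.0076), at 12.97 and 13.03 against 13.53 and 13.42. Prkdc was not past the threshold (0.12, limma adjusted p = 0.20).

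The 3 end processing genes went separate ways. Dclre1c, which encodes the Artemis nuclease that opens hairpins at DNA ends (chr2:3370687-3370746), read 11.23 and 11.13 against 10.31 and 10.23. With means of 11.18 ± 0.072 and 10.27 ± 0.054 (SD, n = 2 each) it was 1.88-fold higher (0.91, SE 0.078, limma adjusted p = 0.0013). All 4 Dclre1c probes were higher, with log2 differences of 0.33, 0.36, 0.91 and 0.98. Of the gap-filling polymerases, Poll was lower (-0.44, limma adjusted p = 0.013), a call lost when either array labelled Pak1+/+ was left out (limma adjusted p of up to 0.063), and Polm stood at -0.02 with overlapping groups.

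Of the ligation genes, Xrcc4 (chr13:89988731-89988790), the scaffold that holds the ligase, read 11.04 and 11.23 against 11.64 and 11.66. It was lower (11.13 ± 0.13 against 11.65 ± 0.014, SD, n = 2 each; -0.52, SE 0.091, limma adjusted p = 0.0096), with no overlap although the arrays labelled Pak1-/- were further apart than the others. The ligase itself, Lig4, was not past the threshold (0.22, limma adjusted p = 0.069), nor was Nhej1, which bridges the ends (-0.22, limma adjusted p = 0.055). Of 8 further end joining genes outside the set, 3 were lower and 1 higher (median -0.14). The lower ones were Mre11a (-0.68), Rad50 (-0.53) and Nbn (-0.38), the 3 subunits of the complex that senses and trims ends, and the higher one was Trp53bp1 (0.45), which protects ends from trimming.

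Base excision repair starts with glycosylases, each of which removes its own kind of damaged base. Of the 8 glycosylase genes, 5 were lower, 0 higher and 3 not past the threshold. Neil3, which acts on oxidised bases in single-stranded DNA and is transcribed mostly in dividing cells (chr8:54672466-54672525), read 10.60 and 10.46 against 11.74 and 11.56. The difference was 2.17-fold (10.53 ± 0.10 against 11.65 ± 0.13, SD, n = 2 each; -1.12, SE 0.10, limma adjusted p = 0.0014). It was the largest decrease among the members with all 4 arrays, but Pms2 was lower still without Pak1-/- replicate 2 (-1.05 against -1.04) and without Pak1+/+ replicate 1 (-1.04 against -1.03).

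Nthl1, for oxidised pyrimidines (chr17:24775385-24775444), read 10.04 and 10.13 against 10.90 and 10.98, and was lower by 0.86 log2 (10.09 ± 0.062 against 10.94 ± 0.057, SD, n = 2 each; -0.86, SE 0.077, limma adjusted p = 0.0014). Ogg1, for oxidised guanine (chr6:113284105-113284164), read 9.93 and 10.07 against 10.75 and 10.77 (SD 0.096 and 0.014, n = 2 each; -0.76, SE 0.080, limma adjusted p = 0.0021). Neither gene's groups overlapped. The thymine and uracil glycosylase genes Mbd4 (-0.49, limma adjusted p = 0.0061) and Ung (-0.32, limma adjusted p = 0.017) were lower too, though the call of Ung was lost without Pak1-/- replicate 1 or either array labelled Pak1+/+ (limma adjusted p of up to 0.092) and under cyclic loess. Mutyh did not pass at its brightest probe (-0.29, limma adjusted p = 0.051) but did at a second (-0.37, limma adjusted p = 0.039). Neil1 (-0.04) and Tdg (0.10) were not past the threshold.

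After the base is removed, Apex1 cuts the strand, Polb fills the gap and Lig3 seals it on the scaffold Xrcc1. Apex1 was lower (14.03 and 14.14 against 14.62 and 14.71; -0.58, SE 0.081, limma adjusted p = 0.0048). By contrast, Polb was higher (12.65 and 12.63 against 11.99 and 11.92; 0.68, SE 0.071, limma adjusted p = 0.0020), and so was Lig3 (12.18 and 12.00 against 11.42 and 11.35; 0.71, SE 0.091, limma adjusted p = 0.0037), whose second probe gave 0.34. Polb and Lig3 thus moved opposite to the 5 glycosylase genes that were lower, and Xrcc1 did not pass (-0.07, limma adjusted p = 0.46).

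Both PARP genes of the set were lower. Their probes, and that of Xrcc5, crossed an exon junction, since the 60 bases spread over 299, 232 and 307 bases of mm9 (chr1:182530341-182530639, chr14:51439134-51439365 and chr1:72430014-72430320, each on the plus strand), and so read spliced RNA. They are shown as the sequences behind these values.
Parp1: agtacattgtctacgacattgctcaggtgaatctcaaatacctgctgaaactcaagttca
Parp2: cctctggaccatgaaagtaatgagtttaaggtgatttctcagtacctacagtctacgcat
Xrcc5: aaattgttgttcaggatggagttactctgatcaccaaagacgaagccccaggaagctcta
Parp1 read 11.35 and 11.40 on the arrays labelled Pak1-/- against 11.98 and 11.85 on the others, which was 1.46-fold lower (11.37 ± 0.037 against 11.92 ± 0.093, SD, n = 2 each; -0.54, SE 0.081, limma adjusted p = 0.0057). Parp2 read 10.96 and 10.94 against 11.73 and 11.63, which was 1.66-fold lower (10.95 ± 0.013 against 11.68 ± 0.068, SD, n = 2 each; -0.73, SE 0.074, limma adjusted p = 0.0019). For neither gene did the groups overlap. Parp3, a relative outside the set that acts at broken ends, was 3.63-fold higher (10.31 and 10.08 against 8.24 and 8.42; 1.86, SE 0.12, limma adjusted p = 0.00058). Of 10 further base excision and single-strand break genes, Parp3 included, 3 were lower and 3 higher (median -0.08).

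**Figure D3:**
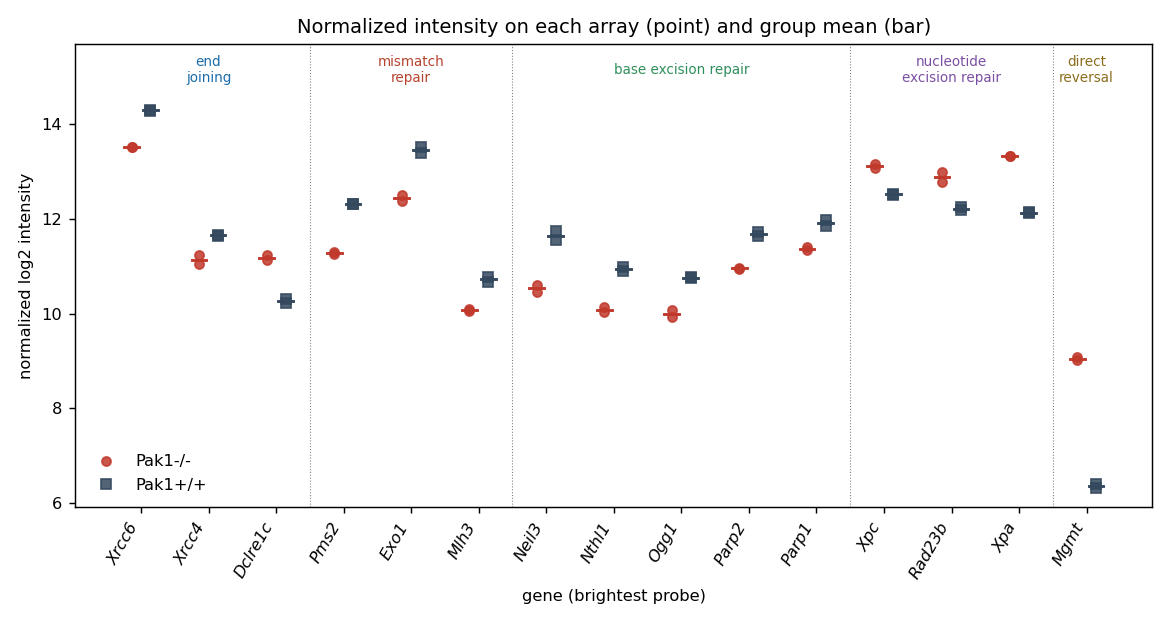
Normalized log2 intensity of the named members on each array (points; 2 arrays labelled Pak1-/- and 2 labelled Pak1+/+) with the group mean as a bar. The groups did not overlap for any gene plotted, which held for 77.6% of all genes. Apart from Parp1, Parp2 and Mgmt, the genes plotted were picked for large changes past the threshold, so their separation is a description. Mgmt lay farthest apart, but was not well above background on either array labelled Pak1+/+.

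In nucleotide excision repair, damage is found across the genome by the Xpc and Rad23b complex or by the Ddb1 and Ddb2 complex, or at stalled RNA polymerase by Ercc6 and Ercc8. Xpc (chr6:91439856-91439915) read 13.15 and 13.07 against 12.51 and 12.53, which was 1.5-fold higher (13.11 ± 0.063 against 12.52 ± 0.016, SD, n = 2 each; 0.59, SE 0.073, limma adjusted p = 0.0033). Rad23b (chr4:55403215-55403274) read 12.79 and 13.00 against 12.19 and 12.24, which was 1.6-fold higher (12.89 ± 0.15 against 12.22 ± 0.040, SD, n = 2 each; 0.68, SE 0.098, limma adjusted p = 0.0052), and its second probe gave 0.30. Both partners were thus higher. Ddb2, the subunit that binds photoproducts, was instead lower (-0.43, limma adjusted p = 0.010), while Ddb1 (0.16, limma adjusted p = 0.15), Ercc6 (0.04) and Ercc8 (-0.10) did not pass.

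Xpa, which verifies the damage and positions the nucleases (chr4:46188146-46188205), read 13.32 and 13.33 on the arrays labelled Pak1-/- against 12.11 and 12.14 on those labelled Pak1+/+. It was 2.29-fold higher (13.33 ± 0.0096 against 12.13 ± 0.021, SD, n = 2 each; 1.2 log2, SE 0.067, limma adjusted p = 0.00043), and its second probe gave 1.10. Its groups were the most clearly separated of this route. The helicase genes that open the DNA went opposite ways, Ercc2 higher (0.37, limma adjusted p = 0.011) and Ercc3 lower (-0.43, limma adjusted p = 0.0087). The call of Ercc2 was lost when either array labelled Pak1+/+ was left out (limma adjusted p of up to 0.068), and those of Ercc3 and Ddb2 without Pak1+/+ replicate 1 (0.051 and 0.054).

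Of the nucleases that cut on either side of the lesion, Ercc5 was higher (0.30, limma adjusted p = 0.020) and Ercc1 lower (-0.30, limma adjusted p = 0.044). Ercc5 lost its call without any 1 of the 4 arrays (limma adjusted p of up to 0.11), and Ercc1 lost it without Pak1-/- replicate 1 or either array labelled Pak1+/+ (up to 0.15). The Ercc1 call was also lost under cyclic loess, with a normexp offset of 0, in the deposited table of log2 values, without the filter on dim probes and with the replicate block. Ercc4, the partner of Ercc1 and outside the set, was higher (0.73, limma adjusted p = 0.0016). Without Pak1+/+ replicate 2 the route had 2 lower and 3 higher genes. The 15 further nucleotide excision genes, which include subunits of the TFIIH complex, had a median of -0.29, where the 11 members had a median of 0.16. The lower ones included Gtf2h1 (-0.29), Gtf2h2 (-0.33), Gtf2h3 (-0.60), Gtf2h4 (-0.31), Ccnh (-0.69) and Mnat1 (-0.69), and Cdk7 was higher (0.37).

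**Figure D4:**
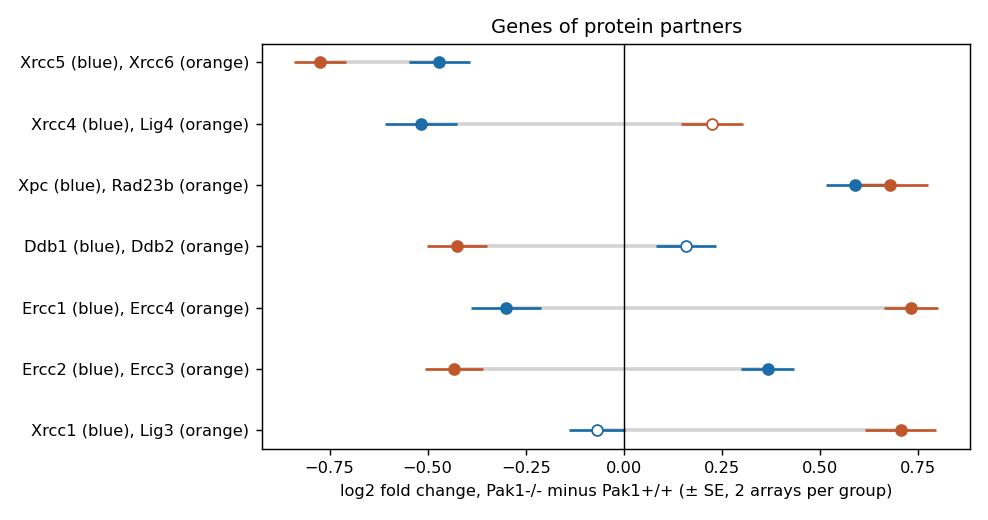
Log2 fold change with standard error (n = 2 arrays per group) for 7 pairs of genes whose proteins work together, the first gene in blue and the second in orange, filled where past the threshold. Both genes moved the same way in the pairs Xrcc5 and Xrcc6 (lower) and Xpc and Rad23b (higher). The genes of every other pair lay on opposite sides of 0. Lig4, Ddb1 and Xrcc1, each in such a pair, were not past the threshold, and the Ercc1 call held in 6 of 16 alternatives.

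Gap filling and ligation after excision use enzymes shared with replication, and these were lower throughout. All 9 such genes outside the set were lower (median -0.85). Pole, the catalytic subunit of the leading strand polymerase, read 13.32 and 13.25 against 14.54 and 14.55 (-1.26, SE 0.069, limma adjusted p = 0.00041). Pold1, that of the lagging strand polymerase, read 13.10 and 13.13 against 14.18 and 14.13 (-1.04, SE 0.069, limma adjusted p = 0.00065). The sliding clamp gene Pcna (-0.87), the ligase gene Lig1 (-0.88) and the flap nuclease gene Fen1 (-0.70) were lower as well, in contrast to Polb and Lig3.

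Mgmt, which removes alkyl groups from guanine in a single step and protects cells from alkylating drugs (chr7:144319790-144319849), showed the largest difference of the set. Its probe read 9.09 and 9.02 on the arrays labelled Pak1-/- against 6.31 and 6.39 on those labelled Pak1+/+, where it was not well above background on either array. The ratio is therefore a bound: under the Pak1-/- label Mgmt was at least 4.54-fold higher (9.05 ± 0.050 against a measured 6.35 ± 0.059, SD, n = 2 each; limma adjusted p = 9.6e-05). Mgmt entered the test only through the 2 arrays where it was bright, so that it had to differ there, and its p and its place among the higher members are a description. It was the 1 member of the 40 that was not well above background on all 4 arrays.

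Neighbouring members mostly lay on the same side of 0, with Ercc1 and Ercc2 the exception. The members lay on 18 chromosomes, and the closest probes were those of Ercc1 and Ercc2, 45.5 kb apart on chromosome 7, with log2 fold changes of -0.30 and 0.37. The calls of Ercc1 and Ercc2 held in 6 and 12 of 16 alternatives. Apex1 and Parp2, 107 kb apart on chromosome 14, were both lower (-0.58 and -0.73). Both genes were also below 0 for Ogg1 and Mbd4, Xrcc5 and Nhej1, Xrcc4 and Msh3, and Exo1 and Parp1, at 2510 to 4690 kb. Of these, Nhej1 was not past the threshold.

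**Figure D5:**
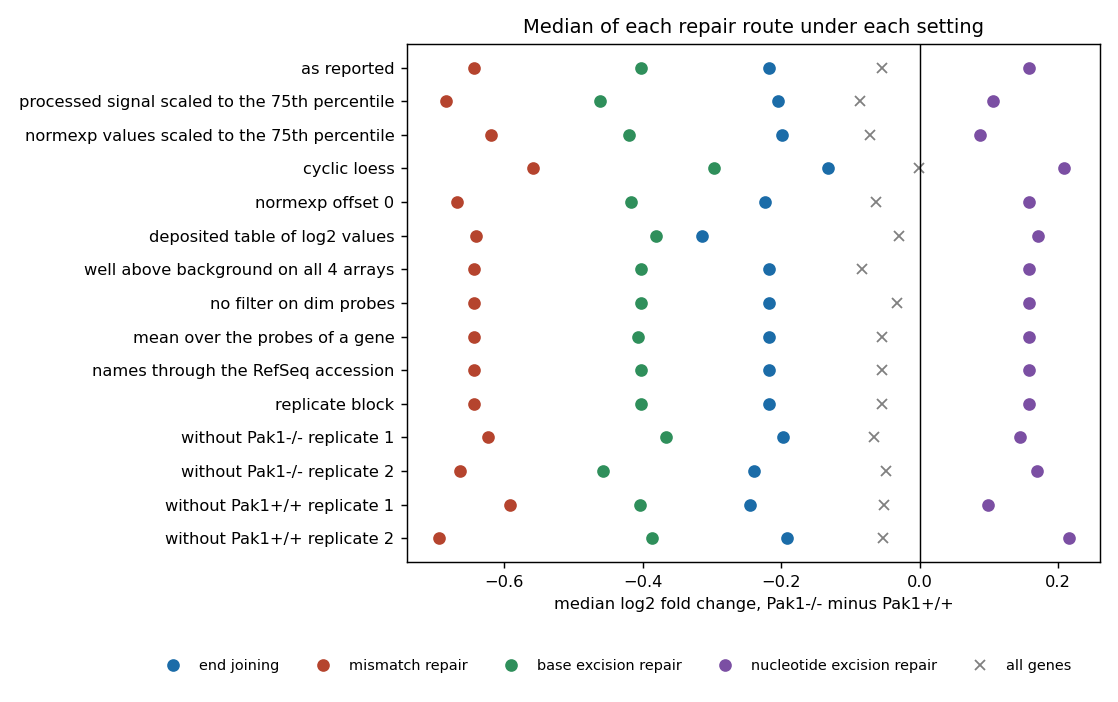
Median log2 fold change of the members of each route (points) and of all genes (crosses) under each way of processing the arrays and with each array left out. The order from mismatch repair, lowest, to nucleotide excision repair, highest and above 0, was the same in every setting plotted.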

How the data were processed

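Total RNA of 4 samples was measured on 1-colour Agilent arrays. The values analysed are linear spot intensities, deposited as scanner output of Feature Extraction 9.5.3.1 per the file headers, with no normalization between arrays. A second deposited table holds log2 values that the authors' methods describe as normexp corrected and quantile normalized, and served as an alternative (24008 of 39485 rows with values, 39 of the 40 members). The same steps were run in limma 3.58.1 (R 4.3.3) on the scanner files: normexp with an offset of 50, log2, quantile normalization without control spots (43020 spots left), and averaging of spots into 39429 probes. The offset, which is not given in the sources used here, understates changes of dim probes.

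The 27229 probes that at least 2 of 4 arrays measured well above background were tested with lmFit and eBayes, two-sided, with no term but genotype. The p-values were adjusted over all 27229 (Benjamini-Hochberg, threshold 0.05). The series design, not the labels of single samples, states that the duplicates came from different tumours, and the number of arrays limits the precision: with 2 residual degrees of freedom and a prior of 2.62, an exact permutation of 2 against 2 cannot go below 0.333, so none was run. The procedure was tested on simulated data with 200 changed probes. For a probe dim on both arrays of a group a bound was used in that group, the lowest signal well above background or its own, whichever is higher.

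The members, gene lists, steps within routes and partner pairs were chosen with earlier results of these data known. Values in every sample were given for Parp1, Parp2, Mgmt, the 3 largest changes past the threshold in each route and any member changed by at least 1 log2, and of the further repair genes outside the set those past the threshold with at least 1 log2 were named; other genes and array values were chosen after they were seen. Of 53 genes outside the set 49 were tested. Probe coordinates are those of the files (mm9). Promoter sequences are RefSeq's on GRCm38.p6 and were used for letters only. The 16 alternatives covered background, scaling, filters, probe choice, names, thresholds, the replicate block and each array left out.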

Additional observations from a re-analysis of the deposited data

How the results depend on the processing

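Of the values for the 15 members that the naming rule picked, 229 kept their call and direction, 10 were no longer past the threshold, all under the added 2-fold requirement, and 0 reversed. Of the 14132 probes past the threshold, 8878 had an adjusted p under 0.01 and 3413 met the added 2-fold requirement, while the count was 10307 to 12164 with 1 array left out. That requirement left 3 lower and 2 higher members, and leaving out 1 array gave 14 to 21 lower and 7 to 8 higher. The end joining median moved to -0.13 under cyclic loess and -0.31 in the deposited table (leave-one-out -0.25 to -0.19). The mismatch repair median moved to -0.68 with the processed signal scaled to the 75th percentile, and to -0.56 by cyclic loess (leave-one-out -0.70 to -0.59). The base excision median moved to -0.46 and -0.30 in those settings (leave-one-out -0.46 to -0.37), and the nucleotide excision median to 0.11 and 0.21, and to 0.086 with normexp values scaled to the 75th percentile (leave-one-out 0.099 to 0.22). Pak1 passed only under cyclic loess (0.27, limma adjusted p = 0.027; leave-one-out 0.17 to 0.21). The cause was not tested. Calls of Ercc1, Ung and Ercc5 held in 6, 10 and 10 of 16 alternatives. The replicate numbers are shared only as numbers (r = -0.03 between the replicate differences of the groups, across probes), and with them as a replicate block 13211 probes, 19 lower and 9 higher members passed. Signal over background limits Mgmt to a lower bound of 2.18 log2. The fitted log2 fold change of Mgmt, which is not this bound, ran from 2.66 to 4.97.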
